A study of Mus musculus with 1646 samples.

Results

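Cluster 1 fibroblasts of the mouse colon were the largest of the 5 fibroblast clusters that the authors drew from their single-cell RNA-sequencing counts. Their members were taken from the sample labels, which give each cell a cluster number, and 29.3% of the 1646 colon cells carried cluster 1. These were 36.95% of the 1307 fibroblasts, of which cluster 5 held 32.5%, cluster 7 held 17.1%, cluster 2 held 10.02% and cluster 6 held 3.44%, or 45 cells. The cells came from male mice aged 10 to 20 weeks, with no treatment named, and were sorted as CD31-negative, reporter-positive events. A reporter line carries a fluorescent protein under the promoter of 1 gene. In Acta2GFP it is a smooth muscle actin transgene, in PdgfrbGFP an eGFP transgene for PDGF receptor beta, in PdgfraGFP a nuclear H2B-GFP inserted at the PDGF receptor alpha locus, and in Cspg4dsRED a DsRed transgene for NG2. Of the cluster 1 cells, 48.9% came from PdgfrbGFP, 36.02% from Acta2GFP, 13.5% (65 cells) from PdgfraGFP and 8 cells from Cspg4dsRED. The line was used as the replicate, since the labels name no mice, and the sums of a line may share animals. The Acta2GFP tissue was also digested with elastase, so that digestion and line cannot be told apart.

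The mucosa of the colon is folded into crypts, with dividing stem cells at the base and differentiated epithelium at the surface. Fibroblasts around a crypt send it WNT ligands and R-spondins, which maintain stem cells, and BMP ligands, which favour differentiation, together with secreted inhibitors of both. Frizzled proteins are the WNT receptors, SFRP proteins bind WNT ligands outside the cell, and GREM1 does so for BMP ligands. The question put to these cells was how the fibroblasts that line a crypt differ in gene expression. The labels give cluster 1 no position along the crypt, and the counts do not measure one, so the cells are called by their cluster number here. Of the other fibroblast clusters, 7 and 5 were rich in *Cd34*, the stromal and progenitor surface sialomucin, while 2 and 6 were rich in BMP ligand transcripts.

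Each cell was a SmartSeq2 library, in which full-length cDNA of 1 cell is amplified and sequenced without molecular identifiers. Cluster 1 cells had a median of 229006 counts on genes, from 48595 to 1295422, and a median of 5646 genes detected. Cells of PdgfrbGFP had a median of 7432 genes detected, against 4847 in Acta2GFP and 4168 in PdgfraGFP, and some genes near 0 in those lines were higher in PdgfrbGFP, such as *Grem1* in cluster 2 (16.2 against 1.61 and 1.02). The part of this in the results was not tested. Cluster 1 made up 36.02% of the fibroblasts of Acta2GFP, 28.9% of PdgfraGFP, 41.3% of PdgfrbGFP and 28.6% of Cspg4dsRED, where the share rested on 28 fibroblasts. Plates ranged from 26.6% to 46.2%. Markers of other cell types were low: the summed level of 8 epithelial genes ran from 2.76 to 56.6 over the lines, of 8 immune genes from 12.04 to 19.4 and of 8 endothelial genes from 20.1 to 38.3, against 246.1 to 504.5 for 14 mural genes, whose largest member was *Acta2*. A level is a count per 500000 counts of a cell, averaged over the cells of a cluster within a line, and values after ± are SDs over lines. Levels are compared within a gene, not between genes. Clusters were drawn from these same counts, so a called difference says how far a difference repeated over lines and is no independent test of the clusters. Raw counts summed per cluster and line were compared by quasi-likelihood in edgeR, p-values were adjusted by Benjamini-Hochberg over 18924 genes, and a gene was called at an adjusted p under 0.05. Clusters 1, 2 and 7 gave 3 sums, cluster 5 gave 4 and cluster 6 gave 2. Some were small: the Cspg4dsRED sum of cluster 5 held 13 cells, the PdgfraGFP sum of cluster 7 held 15, and those of cluster 6 held 10 and 26. Comparisons of cluster 1 with the other clusters share its 3 sums.

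The 6 markers proposed for these cells were detected in 66.7% (*Wnt2b*) to 99.8% (*Cd34*) of cluster 1 cells at 1 count or more. Of the 6, *Col12a1* alone was called higher than in cluster 5, where 0.248% of all genes were. The levels of *Tnc* and *Cd34* in cluster 1 lay between those of the other clusters. *Tnc*, encoding the matricellular protein tenascin-C (chromosome 4, 63959785 to 64047015, minus strand, GRCm38), had a level of 552 in Acta2GFP, 546 in PdgfraGFP and 529 in PdgfrbGFP. Clusters 7 and 5 had 16.9 ± 13.3 (n = 3) and 54.5 ± 44.5 (n = 4), and clusters 6 and 2 had 421.4 ± 96.2 (n = 2) and 1972 ± 120.8 (n = 3). Cluster 1 thus lay above every line of clusters 7 and 5 and below every line of cluster 2. The difference was called against cluster 7 (log2 fold change 4.59, SE 1.00, adjusted p = 0.042 with edgeR). It was not called against cluster 5 (3.30, SE 0.84, adjusted p = 0.15) or cluster 2 (−2.28, SE 0.90, adjusted p = 0.248), though with the line as a block edgeR's adjusted p was 0.0277 and 0.0226. *Cd34* (chromosome 1, 194938819 to 194961279, plus strand) ran the other way. Its level was 712, 533 and 540 in the same 3 lines of cluster 1, while clusters 7 and 5 had 1293 ± 246.7 and 1026 ± 126.3, and clusters 6 and 2 had 30.2 ± 25.6 and 41.3 ± 37.4. It was higher than in clusters 2 and 6 (log2 fold changes 3.73, SE 0.74, and 4.47, SE 0.92, edgeR adjusted p = 0.011 and 0.024). It was not called against clusters 5 and 7, where the log2 differences were −0.76 (SE 0.63) and −0.99 (SE 0.67) and no line of cluster 1 reached their lowest line.

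The WNT pathway markers stood higher in cluster 1 than in any other fibroblast cluster on average. *Sfrp1*, the secreted frizzled-related inhibitor (chromosome 8, 23411502 to 23449632, plus strand), had levels of 486, 574 and 610 in Acta2GFP, PdgfraGFP and PdgfrbGFP. The next cluster was 5, whose highest line was at 346.5, and cluster 6 averaged 11.1. *Sfrp1* was called against clusters 6 (log2 5.27, SE 0.78, adjusted p = 0.00328) and 2 (3.13, SE 0.59, adjusted p = 0.00755). *Fzd1*, a WNT receptor (chromosome 5, 4753839 to 4758035, minus strand), had levels of 216.3, 315.7 and 306.2, against 136.5 on average in cluster 5 and 77.2 in cluster 7. It was called against clusters 7, 6 and 2, with log2 fold changes of 1.77 (SE 0.34), 2.63 (SE 0.41) and 2.92 (SE 0.35). *Wnt2b*, a WNT ligand, was at 103.7, 128.5 and 65.3 in cluster 1 and at 30.2 and 33.4 on average in clusters 7 and 5. It was called against cluster 2 alone (log2 6.01, SE 1.38, adjusted p = 0.0267 with edgeR, 0.056 with the line as a block). It reached 100 counts in 15.3% of cluster 1 cells, which was too few for the detection criterion of the named genes below. *Col12a1*, a fibril-associated collagen, was at 425.4, 400 and 260, far above clusters 7 (29.9) and 5 (40.6), and below cluster 6 (506). The log2 fold changes were 3.40 (SE 0.52, adjusted p = 0.00407) against cluster 7 and 2.73 (SE 0.46, adjusted p = 0.0142) against cluster 5.

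**Figure D1:**
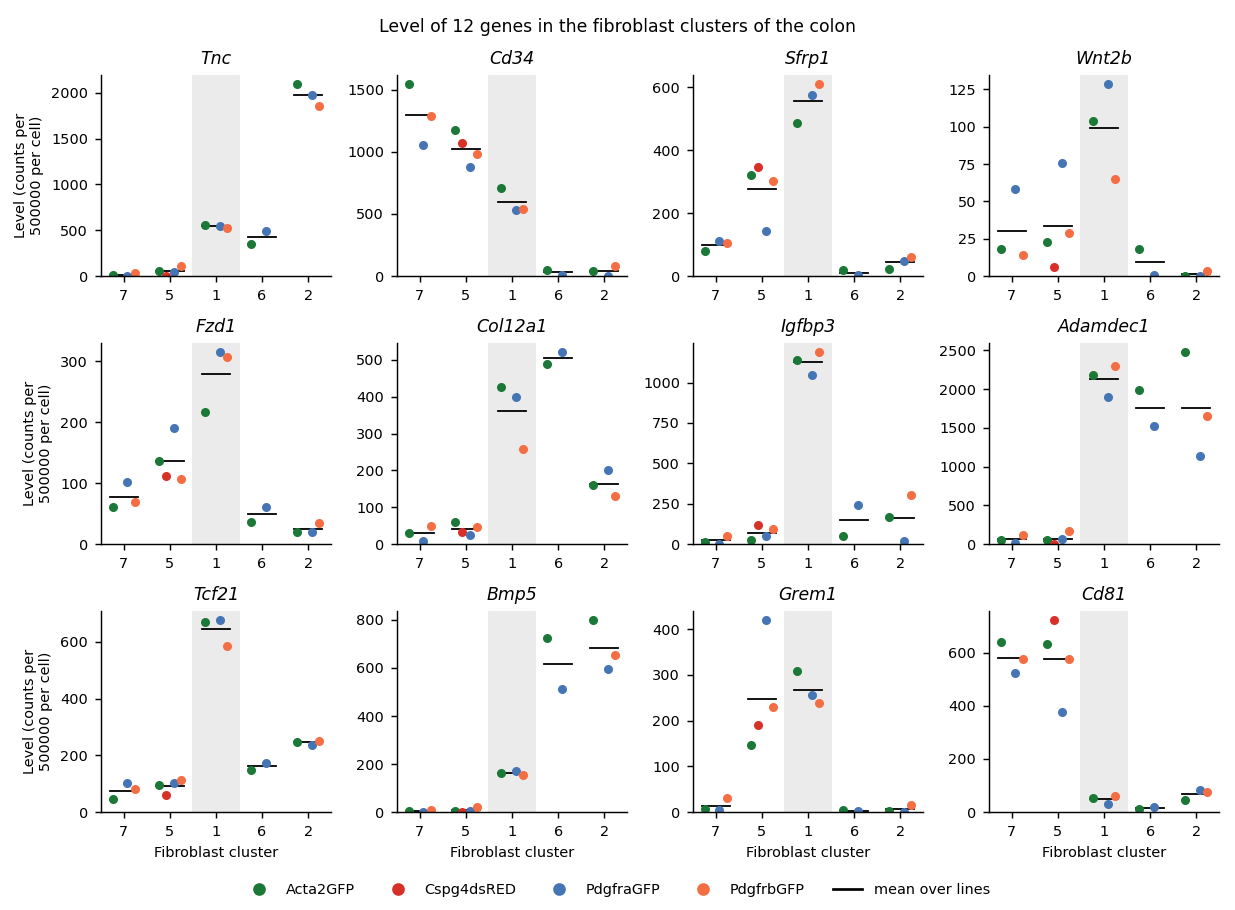
Level of 12 genes (y axis, counts per 500000 per cell, linear from 0) in the fibroblast clusters 7, 5, 1, 6 and 2 (x axis). Each point is 1 reporter line with at least 10 cells of the cluster, each bar is the mean over lines and the grey band marks cluster 1. *Igfbp3* and *Tcf21* peak in cluster 1, *Tnc* and *Bmp5* lie between the low clusters 7 and 5 and the high cluster 2, and *Cd34* is high in clusters 7 and 5 and low in clusters 6 and 2.

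The intermediate mean of *Tnc* in cluster 1 joined a low and a high group of cells. On a log2(level + 1) scale the cells formed a broad low group, fullest in the bin from 2 to 3 (51 cells), and a high group, fullest in the bins from 9 to 11 (89 and 90 cells), with 19 cells in the bin from 7 to 8. A log2(level) of 7, chosen in this gap after the values were seen, was reached by 52.2% of the cells (95% Clopper-Pearson interval 47.6 to 56.7%). These cells had a median level of 884 and the rest had 9.41. The share was 52.3% in Acta2GFP, 53.8% in PdgfraGFP and 52.5% in PdgfrbGFP, while plates with at least 10 cluster 1 cells ran from 20.8% to 73.2%. In clusters 7, 5, 6 and 2 it was 1.79%, 13.9%, 71.1% and 100%. The cut is a point on a range and not a cell type: 40 cells of cluster 1 lay between log2(level) values of 6 and 8. *Cd34* reached a log2(level) of 7 in 85.3% of cluster 1 cells, and both genes did so in 40.8% (36.4 to 45.3%), against 12.9%, 7.63%, 2.22% and 1.79% in clusters 5, 2, 6 and 7. In the mural clusters 3, 4 and 8, which should lack *Cd34*, it was 1.77%. Of cluster 1 cells, 44.5% reached it for *Cd34* alone and 11.4% for *Tnc* alone.

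Counting any read would have hidden this. After each cell was thinned to 50000 counts, 81.3% of cluster 1 cells had at least 1 count of both genes, but so did 30.2% of mural cells, and mural cells had *Tnc* in 53.9% and *Cd34* in 47.9%. With at least 10 counts of both genes in a thinned cell the share was 43.7% (39.2 to 48.2%) in cluster 1 and 3.59% in mural cells. The other fibroblast clusters 5, 2, 6 and 7 had 15.6%, 13.7%, 6.67% and 3.18%. Without thinning, 94.4% of cluster 1 cells had at least 1 count of both. Intervals cover counting error only. Within cluster 1 the ranks of *Tnc* and *Cd34* ran against each other, with Spearman's rho of −0.34 in Acta2GFP, −0.47 in PdgfraGFP and −0.21 in PdgfrbGFP.

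**Figure D2:**
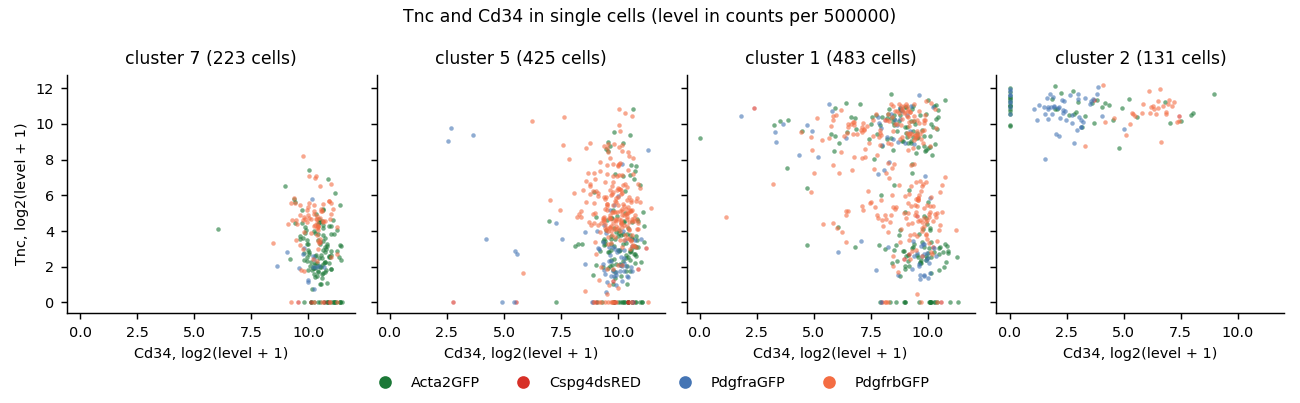
*Tnc* (y axis) against *Cd34* (x axis) in single cells, as log2(level + 1) with the level in counts per 500000, for clusters 7, 5, 1 and 2 (panels from left to right), with points coloured by reporter line. Cluster 1 splits into a high and a low *Tnc* group at high *Cd34*, cluster 2 is high in *Tnc* only, and clusters 5 and 7 are mostly high in *Cd34* only.

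A few genes followed *Tnc* from cell to cell inside cluster 1. Of 508 genes that reached 100 counts in 30% or more of its cells, 8 had a Spearman's rho with *Tnc* of at least 0.3 in size and 1 sign in all 3 lines. *Fndc1*, a fibronectin type III domain gene, had the highest, at 0.68 in Acta2GFP, 0.60 in PdgfraGFP and 0.59 in PdgfrbGFP. *Ces1d* (0.37 to 0.50), the carboxylesterase, *Aspn* (0.35 to 0.46), the small leucine-rich proteoglycan asporin, *Hmcn2* (0.33 to 0.51), encoding hemicentin-2, and *Col6a3* (0.31 to 0.47), a collagen VI chain, also went with *Tnc*. *Cd248*, encoding endosialin, went against it, with rho of −0.54, −0.60 and −0.35. *Timp3*, an inhibitor of metalloproteinases, was at −0.36, −0.44 and −0.37, and *Anxa2*, encoding annexin A2, at −0.32, −0.36 and −0.33. *Grem1* and *Bmp5* showed no such order, with rho of 0.05 to 0.10 and 0.06 to 0.21. Cells of a line share plates, and the rho of *Tnc* with the number of genes detected was 0.02 in Acta2GFP, −0.36 in PdgfraGFP and −0.02 in PdgfrbGFP. With total counts it was −0.10, −0.47 and −0.10. These are descriptions of the cells and carry no test.

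Against the equally weighted mean of the 4 other clusters, cluster 1 was higher in *Grem1*, *Igfbp3* and the other genes named next. Of 18924 genes, 1.6% were higher and 0.164% lower, the latter being 31 genes. Of these, 51 and 24 also kept their direction in every line and had 100 counts or more in 30% of cells on the higher side. Among these 51, the log2 fold changes were largest for *Grem1* (4.03, SE 0.65), the BMP antagonist gremlin 1, *Igfbp3* (3.85, SE 0.62), a carrier of insulin-like growth factors, and *Spon1* (3.48, SE 0.52), the matrix protein spondin 1. They were followed by *C4b* (3.46, SE 0.65), a complement component, *Serpina3n* (3.38, SE 0.46), a secreted serine protease inhibitor, and *Adh1* (3.37, SE 0.56), an alcohol dehydrogenase. *Hsd11b1* (3.01, SE 0.58), which regenerates active glucocorticoid, and *C1qtnf3* (2.98, SE 0.32), a secreted C1q-related protein, completed the higher genes the rule named, with edgeR adjusted p from 0.000362 to 0.0145. An equally weighted mean does not say which cluster a gene is low in. *Grem1* was at 307.5, 255.1 and 240 in the lines of cluster 1 and at 246.5 ± 120 in cluster 5, where the log2 difference was −0.12 (SE 0.85). *Adh1* and *Hsd11b1* were likewise level with cluster 5, at 186.2 against 190 and 240 against 217.9. Pooling the counts of the other clusters before the comparison, which weights them by their cells, left 0.217% of the 18924 genes higher and 0.27% lower, with *Igfbp3* (edgeR adjusted p = 0.0117), *Spon1* and *C1qtnf3*, and without *Grem1* (adjusted p = 0.575), *C4b*, *Serpina3n*, *Adh1* and *Hsd11b1*. Without cluster 6, *C4b*, *Adh1* and *Hsd11b1* were not called, nor was *Adh1* with at least 3 cells per sum. With DESeq2 2.26% were higher and 0.777% lower, and with the line as a block 1.61% and 0.312%. Leaving out the Acta2GFP sums gave 0.0951% higher and 0.0211% lower, leaving out PdgfraGFP 0.291% and 0.0581%, and leaving out PdgfrbGFP 0.65% and 0.0687%. Over this and the pairwise comparisons, 56 differences of named genes were called, of which 10 stayed called without Acta2GFP, 32 without PdgfraGFP and 38 without PdgfrbGFP. All kept their direction, but the rule that named them required 1 direction in every line, so this is no further support.

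*Igfbp3* (chromosome 11, 7206086 to 7213923, minus strand) was high in cluster 1 in each line. Its level was 1142 in Acta2GFP, 1048 in PdgfraGFP and 1188 in PdgfrbGFP, while clusters 7, 5, 6 and 2 had 22.9 ± 24.1, 70.4 ± 41.8, 146.4 ± 138.2 and 163.6 ± 143.5. No line of another cluster passed 305.1. It was called against clusters 7 (log2 5.52, SE 1.06, adjusted p = 0.0215) and 5 (4.29, SE 0.89, adjusted p = 0.0487), and not against clusters 6 (3.096, SE 1.12) and 2 (2.49, SE 0.93), whose lines spread widely. Its call against cluster 5 was lost with at least 3 cells per sum, without the PdgfraGFP plate of 24 cells, and without each of Acta2GFP, PdgfrbGFP and Cspg4dsRED, with log2 fold changes from 3.94 to 4.58. At 100 counts it was detected in 82.2% of cluster 1 cells, and in 20.0%, 14.5%, 5.88% and 1.35% of clusters 6, 2, 5 and 7. *Adamdec1* encodes the decysin metalloprotease. In thinned cells, 89.6% of cluster 1 (86.5 to 92.2%) had at least 10 counts of both genes, against 26.7%, 23.7%, 13.7% and 5.45% of clusters 6, 2, 5 and 7 and 4.49% of mural cells.

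The genes that were lower in cluster 1 than in the mean of the others were fewer, and some were low throughout the *Cd34*-rich clusters too. *Glp2r*, the receptor of the intestinal hormone GLP-2 (log2 −3.83, SE 0.72), *Wnt5a*, a WNT ligand (−3.03, SE 0.60), and *Procr*, the protein C receptor (−2.34, SE 0.46), were at 1.60, 10.54 and 16.5 in cluster 1 and at 194.3, 452.04 and 403.5 in cluster 2. *Slc2a1*, the glucose transporter GLUT1 (−2.88, SE 0.54), was at 6.96 ± 2.31 and at 227.8 in cluster 2. *Lrrn4cl* (−2.58, SE 0.54) and *Ebf1*, a transcription factor (−2.39, SE 0.55), were instead at 351.9 and 195.2 in cluster 7. A pair of genes was lower than in each cluster. *F3*, tissue factor, which starts blood coagulation (chromosome 3, 121723537 to 121735048, plus strand), was at 38.1, 33.1 and 45.7 in cluster 1 and at no less than 94.5 in any line elsewhere. Its log2 fold changes were −2.30 (SE 0.27) against cluster 5, −1.87 (SE 0.28) against 7, −3.58 (SE 0.31) against 6 and −3.35 (SE 0.29) against 2. *Vwa1*, a matrix protein of the von Willebrand A family, was at 16.4, 11.5 and 14.4, while clusters 5, 7, 2 and 6 averaged 146.9, 71.2, 48.2 and 42.8. The highest edgeR adjusted p of these 8 tests of *F3* and *Vwa1* was 0.0171. Of the genes named as lower than the mean, *Wnt5a* and *Procr* were not called with pooled counts or without cluster 6, and *Slc2a1* was not with pooled counts or at least 3 cells per sum. *Glp2r*, *Slc2a1* and *Lrrn4cl* were not called without the PdgfraGFP plate of 24 cells. With limma on cell means, *Slc2a1*, *Vwa1*, *Lrrn4cl* and *Ebf1* were not called against that mean.

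**Figure D3:**
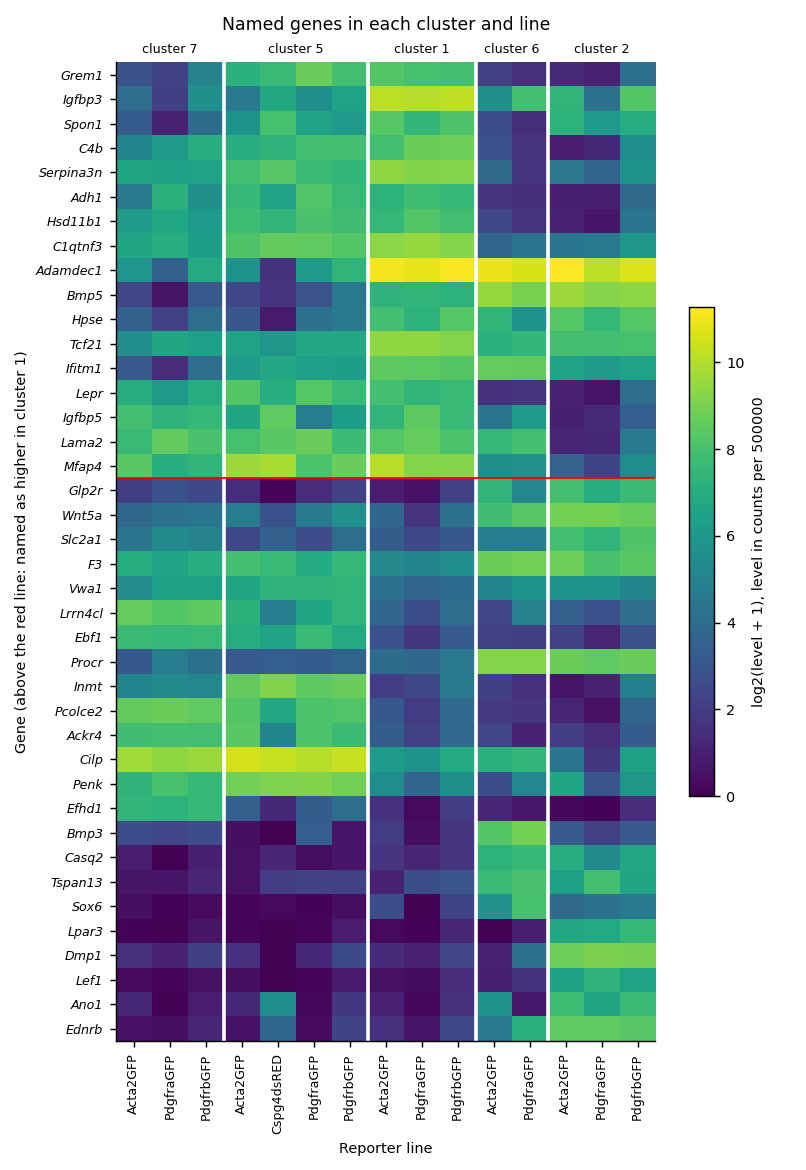
Heat map of the 40 named genes (rows; 17 named as higher in cluster 1 above the red line) over the 15 sums of cluster and reporter line (columns), coloured by log2(level + 1) with the level in counts per 500000. The cluster 1 columns are bright for *Igfbp3*, *Tcf21*, *Serpina3n* and *C1qtnf3* and dark for *F3* and *Vwa1*, and clusters 2 and 6 are dark for *Grem1*, *C4b*, *Adh1* and *Lepr*.

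Cluster 5 was the nearest by number of called genes, with 47 higher (0.248%) and 31 lower (0.164%) in cluster 1. DESeq2 called 1.13% and 1.18% of the genes, and edgeR called 3 and 3 genes without Acta2GFP, 22 and 16 without PdgfraGFP and 13 and 5 without PdgfrbGFP. *Adamdec1* (log2 4.98, SE 0.88, adjusted p = 0.0189) led the higher genes that also kept their direction in every line and met the detection criterion. It was at 2179, 1896 and 2301 in the lines of cluster 1, with no line of cluster 5 above 164.97. *Bmp5*, a BMP ligand (chromosome 9, 75775364 to 75900310, plus strand), was at 162.7, 171.7 and 154.6, against 2.28 to 22.1 over the lines of cluster 5 (log2 4.72, SE 0.70, adjusted p = 0.00645). *Hpse*, the heparan sulfate-cleaving heparanase, was at 238.4 ± 80.4 against 12.4 (log2 4.58, SE 0.75, adjusted p = 0.0114). *Tcf21* (chromosome 10, 22817281 to 22820174, minus strand), a transcription factor of visceral mesenchyme, was at 671, 679 and 585. No line of cluster 5 passed 112.1 (log2 2.76, SE 0.28, adjusted p = 0.000281). The lower genes included *Inmt*, an indolethylamine N-methyltransferase (log2 −5.57, SE 1.12), which was at 9.92 in cluster 1 against 427.7 and 37.2 in clusters 5 and 7. *Pcolce2*, an enhancer of procollagen cleavage (−5.35, SE 0.93), *Ackr4*, a scavenging chemokine receptor (−4.86, SE 0.86), *Cilp*, a cartilage-type matrix protein (−4.27, SE 0.77), and *Penk*, the enkephalin precursor (−3.73, SE 0.65), followed. Without the PdgfraGFP plate of 24 cells, *Hpse*, *Igfbp3*, *Inmt*, *Ackr4* and *Penk* were not called. *Ackr4* was not called with limma on cell means either (log2 −3.29, SE 0.89, adjusted p = 0.178), and DESeq2 gave no adjusted p for *Pcolce2*. *Penk* was no longer called with the line as a block (edgeR adjusted p = 0.0597, against 0.0161). *Cd81*, a tetraspanin, was also lower (log2 −3.57, SE 0.32, adjusted p = 0.000112), at 53.6, 29.4 and 61.7 against 376.05 to 723. Of 16 genes induced by tissue dissociation, *Egr1* was called lower than in cluster 5 (edgeR adjusted p = 0.0418, or 0.089 with the line as a block), and their median log2 fold change was −1.10 against 0.05 for all genes. Their mean log2(level + 1) was 4.07, 3.81 and 5.50 in Acta2GFP, PdgfraGFP and PdgfrbGFP of cluster 1, and 6.09, 5.57 and 6.72 in the same lines of cluster 5. The part of this in the other differences was not tested.

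Against cluster 7, 0.576% of genes were higher and 0.333% lower, and with the line as a block 0.904% and 0.555%. The calls were 8 and 7 genes without Acta2GFP, 48 and 24 without PdgfraGFP and 30 and 8 without PdgfrbGFP. Of the genes named against cluster 5, *Igfbp3*, *Bmp5* (log2 5.13, SE 0.81) and *Adamdec1* (4.81, SE 0.99) were named here as well, with *Spon1* (5.30, SE 0.88) and *Ifitm1*, an interferon-induced membrane protein (5.10, SE 0.57). *Ifitm1* was at 357.3, 340 and 302.2 in cluster 1 and at 8.09, 1.70 and 15.5 in cluster 7, and edgeR's adjusted p was 0.000295. Those lower genes that met the same criteria of direction and detection were led by *Efhd1*, a calcium-binding protein (−6.78, SE 1.25), *Pcolce2* (−5.84, SE 0.96) and *Ebf1* (−5.64, SE 0.70). *Lrrn4cl* (−5.15, SE 0.68) and *Ackr4* (−5.00, SE 0.88) completed the named genes. *Efhd1* was at 170 in cluster 7 and 9.02 in cluster 5, while *Pcolce2*, *Ebf1* and *Ackr4* were at 133.9 or more on average in both. None of 16 genes induced by tissue dissociation was called, and their median log2 fold change was −0.53 against 0.07 for all genes. Their mean log2(level + 1) was 4.07, 3.81 and 5.50 in Acta2GFP, PdgfraGFP and PdgfrbGFP of cluster 1, and 5.34, 4.77 and 5.93 in cluster 7. The part of this in the other differences was not tested.

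Compared with cluster 2, 1.37% of genes were higher and 1.36% lower in cluster 1, and 15 of 18 markers of crypt apex fibroblasts were lower in cluster 1. The list was chosen with earlier results of these data known, so the count is no independent support. The paper itself reported *Foxl1*, *Bmp2*, *Bmp5* and *Bmp7* in apex fibroblasts of these data. Without Acta2GFP the calls were 0.106% and 0.148%, without PdgfraGFP 0.629% and 0.613% and without PdgfrbGFP 0.846% and 0.555%. Among higher genes that met the criteria of direction and detection, the largest changes were in *Igfbp5*, an IGF-binding protein (log2 5.54, SE 0.93), *Grem1* (5.04, SE 1.08), *Lama2*, a laminin chain (4.90, SE 0.81), *Adh1* (4.83, SE 0.92) and *Mfap4*, a microfibril-associated protein (4.76, SE 0.75). *Adh1* was not called with at least 3 cells per sum, here or against cluster 6. *Mfap4* was at 1066, 588 and 607 in cluster 1 and at 10.52, 4.04 and 43.1 in cluster 2. The lower genes named by the same rule were close to 0 in cluster 1. *Lpar3*, a lysophosphatidic acid receptor, was at 0.238, 0.0728 and 1.28 against 105.7, 117.5 and 178.8 (log2 −8.37, SE 1.43, adjusted p = 0.00411). *Dmp1* (−8.16, SE 0.98), a mineralisation-related matrix protein, *Lef1* (−7.90, SE 0.90), a WNT-responsive transcription factor, *Ano1* (−7.64, SE 1.85), a chloride channel, and *Ednrb* (−7.53, SE 1.21), an endothelin receptor, followed. Of 16 genes induced by tissue dissociation, such as *Fos* and *Egr1*, 14 were lower in cluster 1 than in cluster 2, with a median log2 fold change of −2.35 against 0.02 for all genes. Their mean log2(level + 1) was 3.81 to 5.50 over the lines of cluster 1 and 7.33 to 8.28 over those of cluster 2. The part of this in the other differences was not tested.

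Against cluster 6, with 10 and 26 cells in its only 2 sums, 1.45% of genes were higher and 0.407% lower, or 1.84% and 0.724% with the line as a block. They were 0.433% and 0.143% without PdgfrbGFP and 2.24% and 0.624% without Cspg4dsRED. Without Acta2GFP they were 0.122% and 0.0211% and without PdgfraGFP 1.08% and 0.222%, where the lone sum of cluster 6 was assumed to vary like those of the other clusters. *Adh1* (log2 7.11, SE 1.27), *Grem1* (6.98, SE 1.47), *C4b* (6.75, SE 1.45), *Lepr*, the leptin receptor (6.59, SE 1.17), and *Spon1* (6.41, SE 1.13) changed most among higher genes that met the criteria of direction and detection. Each averaged under 4 in cluster 6. *Bmp3*, a BMP family ligand (−7.41, SE 1.44), *Casq2*, a calcium-storing calsequestrin (−6.33, SE 0.82), *Tspan13*, a tetraspanin (−5.55, SE 1.02), *Sox6*, a transcription factor (−5.42, SE 1.13), and *Procr* (−5.17, SE 0.60) were lower. *Bmp3* was at 400 in cluster 6 and at 6.77 or less on average in the other fibroblasts. The summed level of the mural marker list was 833 and 2015 in the sums of cluster 6, where its largest member was *Acta2*, and its part in these differences was not tested.

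WNT ligands, inhibitors and receptors were called in small numbers in each comparison. Counts of list members here and in the paragraphs that follow stand beside shares of all genes, higher and lower, of 1.6% and 0.164% against the mean of the others, 0.248% and 0.164% against cluster 5, 0.576% and 0.333% against cluster 7, 1.45% and 0.407% against cluster 6, and 1.37% and 1.36% against cluster 2. Of 12 WNT ligands and R-spondins, 11 were tested, of which *Wnt4* and *Rspo2* were higher (1.6% of all genes) and *Wnt5a* lower (0.164%) than in the mean of the others. With the line as a block *Rspo2* was not called (edgeR adjusted p = 0.0784, against 0.0377). *Wnt4* was higher in cluster 1 than in clusters 5 (log2 5.70, SE 0.84) and 7 (5.75, SE 0.96), at 17.7, 24.2 and 17.4 with no line above 0.913 there, and was at 15.1 and 41.6 in clusters 2 and 6. *Wnt2b*, *Wnt2* (5.05, SE 1.21) and *Rspo3*, an R-spondin (5.16, SE 1.21), were higher than in cluster 2. *Wnt2* was at 30.4 ± 19.4 in cluster 1 and 90.96 in cluster 7, a difference that was not called (log2 −1.56, SE 1.02). *Wnt5a* was lower than in clusters 2 (−5.55, SE 0.74) and 6 (−4.77, SE 0.74). Of 7 secreted inhibitors tested, *Frzb* (log2 4.91, SE 1.12), *Sfrp2* (5.65, SE 1.36) and *Sfrp1* were higher than in the mean of the others (1.6% of all genes). *Frzb*, which binds WNT ligands, was at 70.7, 58.1 and 80.5 in cluster 1 and at 8.89 or less in every line of the other clusters. *Sfrp2* was at 12.04, 4.12 and 18.5, with 2.46 the highest line elsewhere. Neither was called against cluster 5, 7, 6 or 2 singly, though with the line as a block *Frzb* was called against clusters 7 and 2 (edgeR adjusted p = 0.0128 and 0.0281) and *Sfrp2* against cluster 7 (0.0448). Against cluster 7, *Dkk3*, a member of the Dickkopf family, was higher (1.60, SE 0.34) and *Sfrp4* lower (−4.74, SE 1.07). *Wif1*, WNT inhibitory factor 1, was lower than in cluster 6 (−9.44, SE 1.60, edgeR adjusted p = 0.00723), and none of the 7 was called against cluster 5. Of 14 receptors tested, *Fzd1* was called against clusters 7, 6 and 2, *Fzd4* against cluster 6 (5.18, SE 0.96), and *Lgr5*, an R-spondin receptor, was lower than in cluster 2 (−7.86, SE 1.36), where it was at 287.8 against 1.29 and 1.36% of all genes were lower. Of 9 targets and TCF/LEF factors tested, *Lef1*, lower than in cluster 2 (1.36% of all genes), was the only call.

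*Bmp5* and *Bmp7* had mean levels in cluster 1 above those of clusters 7 and 5 and below those of clusters 2 and 6, and *Grem1* was high in the same cluster. Of 9 ligands, 3 were higher in cluster 1 than in cluster 5 (0.248% of all genes), namely *Bmp5*, *Bmp7* (log2 4.64, SE 0.87, adjusted p = 0.0295) and *Bmp4* (1.27, SE 0.20, adjusted p = 0.00855). With the line as a block *Bmp7* was not called (edgeR adjusted p = 0.0621). *Bmp4* was at 860, 786 and 776 in cluster 1 and level with cluster 2 (784, log2 −0.14, SE 0.21), while cluster 5 had 287.3 and cluster 7 had 141.004. *Bmp2* and *Bmp7* were lower than in cluster 2 (−4.22, SE 0.82, and −3.65, SE 0.93), at 21.8 against 456.8 and at 38.7 against 398.1. *Bmp5* was at 683 in cluster 2 (log2 −2.25, SE 0.71, adjusted p = 0.126). In thinned cells, 24.1% of cluster 1 (20.4 to 28.2%) had at least 10 counts of both *Grem1* and *Bmp5*, where independence would give 24.4%. The pair was in 0.943% of cluster 5 cells and 1.497% of mural cells. It was in none of the cells of clusters 2, 6 and 7, where a count of 0, taken as under 3 cells, allows a share of up to 2.29%, 6.67% and 1.36%. Of 11 antagonists tested, *Grem1* was higher than in clusters 2 and 6 (1.37% and 1.45% of all genes), and *Bambi*, a decoy receptor, was higher than in cluster 6 (log2 6.81, SE 1.56, edgeR adjusted p = 0.0357). *Fst*, which binds activin, and *Twsg1*, a modulator of BMP, were lower than in cluster 2 (with the line as a block the edgeR adjusted p of *Fst* was 0.0839), *Nbl1* lower than in cluster 6 and *Fstl1* lower than in cluster 7, where 1.36%, 0.407% and 0.333% of all genes were lower. Of 7 BMP response genes, the inhibitors of differentiation *Id1*, *Id2* and *Id3* were higher than in cluster 7 (log2 3.99, 2.00 and 1.91, with 0.576% of all genes higher) and lower than in cluster 2 (−3.34, −1.54 and −1.49, with 1.36% lower). *Id2* was also lower than in cluster 6 (−2.65, SE 0.40, edgeR adjusted p = 0.00408), and none of the 7 was called against cluster 5. *Id3* was at 243.5, 185.04 and 250 in cluster 1, 54.1 in cluster 7 and 667 in cluster 2.

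Matrix genes were counted by list. Of 8 fibrillar collagen genes tested, 1 was called in a pairwise comparison, *Col3a1*, which was higher than in cluster 6 (log2 0.62, SE 0.15), where 1.45% of all genes were higher. It was at 2799 ± 163.4 in cluster 1 and 2631, 2358 and 2711 in clusters 7, 5 and 2. Of 11 collagen VI and fibril-associated collagen genes, *Col12a1* was higher and *Col6a3* lower than in clusters 5 and 7, and *Col14a1* was higher than in clusters 6 and 2. Against cluster 2 the collagen VI chains *Col6a1*, *Col6a2*, *Col6a3* and *Col6a4* were lower (1.36% of all genes). *Col6a3* was lower than in clusters 5 (−1.71, SE 0.25), 7 (−1.83, SE 0.26) and 2 (−2.18, SE 0.26), at 196.6, 218.1 and 243.1 in cluster 1, where no line of those clusters was under 581. Of 22 basement membrane genes tested, *Nid1* was the only one called against clusters 5 and 7, none was called against cluster 6, and *Lama2* was higher and *Lama5*, *Nid1* and *Lamb1* lower than in cluster 2. *Nid1*, the basement membrane linker nidogen-1, was lower than in the same 3 clusters (−1.30, −2.14 and −1.79), at 194.9 ± 27.4. Of 16 matricellular genes, 1 was higher than in cluster 5 (*Postn*), 3 than in cluster 7 (*Spon1*, *Tnc* and *Postn*) and 3 than in cluster 6 (*Spon1*, *Ccn2* and *Postn*), where *Ccn4* was lower. *Ccn2* and *Tnxb* were higher and *Ccn4*, *Sparcl1* and *Ccn1* lower than in cluster 2. *Postn*, periostin, was at 1974, 1931 and 1601, above clusters 5 (log2 2.16, SE 0.23), 7 (1.19, SE 0.24) and 6 (1.67, SE 0.28). Of 19 elastic fibre and fibulin genes, 8 were higher in cluster 1 than in cluster 2 (1.37% of all genes) and none lower (1.36%), with a median log2 fold change of 1.52 against 0.02 for all genes. Against cluster 6, 7 were higher (1.45% of all genes), and against cluster 5 none was called in either direction (median 0.03). *Emilin2* and *Fbn1*, encoding fibrillin-1, were lower than in cluster 7, where 0.333% of all genes were lower. Against the mean of the others, the matrix genes called higher (1.6% of all genes) were *Col12a1*, *Lama1*, *Col15a1*, *Eln*, *Mfap4*, *Ltbp1*, *Fbln5*, *Fbln1*, *Spon1*, *Ccn2* and *Postn*, and those called lower (0.164%) were *Col6a3* and *Nid1*. *Eln*, elastin, was at 230.7, 343.4 and 257.6 in cluster 1 and at 28.6 or less in every line of clusters 2 and 6. *Fbln5*, which binds elastin, was at 520, 318.7 and 484, and averaged 148.5 and 151.8 in clusters 5 and 7, differences that were not called (log2 1.54, SE 0.51, and 1.44, SE 0.56). Of 9 small leucine-rich proteoglycans tested, *Aspn*, *Lum* and *Dcn* were higher (1.37% of all genes) and *Podn* lower (1.36%) than in cluster 2, and *Ogn* was lower than in cluster 6 (0.407%). *Lama5*, a laminin chain, was at 9.03 against 401.3 in cluster 2 (log2 −5.35, SE 0.77).

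Growth factors, chemokines and complement genes followed several patterns. *Fgf10*, a fibroblast growth factor that acts on epithelium, was at 180.9, 285.9 and 127.3 in cluster 1, with 55.8 the highest line elsewhere. It was called against clusters 7 (log2 5.86, SE 1.17) and 2 (4.81, SE 1.11), and not against 5 (3.33, SE 0.93) or 6 (1.36, SE 1.11). *Hgf*, hepatocyte growth factor, was higher than in clusters 5 (4.36, SE 0.85, with an edgeR adjusted p of 0.0374, or 0.12 with the line as a block) and 7 (5.11, SE 0.99), and level with cluster 2 (66.8 against 42.3, log2 0.06, SE 0.83). *Tnfsf13b*, the B cell survival factor BAFF, was at 152.1, 85.6 and 102.9, with 20.5 the highest line elsewhere, and was called against cluster 2 (3.96, SE 1.00) and the mean of the others (3.71, SE 0.63, adjusted p = 0.00625). Of 16 chemokines, 6 were higher than in the mean of the others (1.6% of all genes) and none lower (0.164%). Cluster by cluster, 4 were higher than in cluster 2 (1.37% of all genes), 2 than in cluster 7 (0.576%), 1 than in cluster 6 (1.45%) and 0 than in cluster 5 (0.248%, so that 0 of 16 is near that share). *Cxcl16*, one of the 6, was not called with the line as a block (edgeR adjusted p = 0.0935, against 0.0422), nor was it then against cluster 7 (0.0695, against 0.0371). *Cxcl12*, which attracts lymphocytes, was at 1751, 1154 and 1258, above clusters 7 (3.08, SE 0.41) and 2 (2.10, SE 0.39), and at 2160 in cluster 6. *Ccl8*, a monocyte chemokine, was at 10.8, 42.6 and 17.4, above cluster 2 (7.11, SE 1.61). *Ccl11*, eotaxin, was level with clusters 5 and 7 (385.1 against 375.5 and 373.2) and higher than in 2 and 6. Of 13 complement genes tested, 6 were higher than in cluster 6 (1.45% of all genes) and 5 than in cluster 2 (1.37%), and *C3* was lower than in clusters 5 (−2.93, SE 0.60) and 7 (−2.80, SE 0.61). *C3* was no longer called against cluster 5 with the line as a block (edgeR adjusted p = 0.0901). *Nrp2*, a co-receptor of VEGF and semaphorins, and *Sema3f*, its semaphorin ligand, were higher than in clusters 5 (1.78, SE 0.35, and 4.57, SE 0.73) and 7 (3.12, SE 0.41, and 5.05, SE 0.84).

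The marker lists of crypt base and apex stroma were counted in the same way. Their members were chosen with earlier results of these data known, so the counts are no independent test. Of 16 markers of *Cd34*-positive stroma at the crypt base, 3 were lower in cluster 1 than in cluster 5 (0.164% of all genes) and 5 than in cluster 7 (0.333%), among them *Ackr4*, *Cd81* and *C3*, with none higher. Against cluster 2, 6 were higher (1.37% of all genes) and *Procr* lower, and against cluster 6, 5 were higher (1.45%) and 1 lower. Of 18 apex markers, *Bmp5* and *Bmp7* were higher (0.248% of all genes) and *F3* lower (0.164%) than in cluster 5, *Bmp5* was higher (0.576%) and *F3* lower (0.333%) than in cluster 7, and *Sox6*, *Wnt5a*, *F3* and *Pdgfra* were lower than in cluster 6 (0.407%). Those lower than in cluster 2 included *Foxl1*, a forkhead factor (11.3 against 145.8, log2 −4.01, SE 0.98), *Ptgs2*, the cyclooxygenase COX-2 (21.6 against 1093, −5.58, SE 0.93), and *Pdgfra* (190.8 against 1042, −2.76, SE 0.30). Of 32 mesenchymal transcription factors tested, *Tcf21* and *Foxf2*, a forkhead factor, were higher (0.248% of all genes) and *Ebf1* lower (0.164%) than in cluster 5. *Foxf2* was at 44.8, 47.1 and 36.2, against 3.87 in cluster 5 and 60.03 in cluster 2. *Tcf21* was also higher than in clusters 7 (log2 2.79, SE 0.32) and 6 (1.54, SE 0.35), and its difference from cluster 2 was not called (1.11, SE 0.30, adjusted p = 0.0632 with edgeR, 0.0361 with the line as a block). *Zeb2*, a zinc finger repressor, was higher than in clusters 2 and 6, and *Osr2* was lower than in cluster 7. Of 10 retinoid genes tested, *Rarres2*, the chemerin precursor, was higher than in clusters 5 (1.06, SE 0.19) and 7 (1.32, SE 0.21), where 0.248% and 0.576% of all genes were higher. *Aldh1a2* and *Aldh1a3*, which make retinoic acid, were higher than in cluster 2 (1.37% of all genes) and *Aldh1a1* lower (1.36%), and of these *Aldh1a3* was also higher (1.45%) and *Aldh1a1* lower (0.407%) than in cluster 6. Of 10 hedgehog pathway genes, 0 were called in the 5 comparisons, in which 0.164 to 1.6% of all genes were called in a direction, so that none in 10 does not set the list apart.

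**Figure D4:**
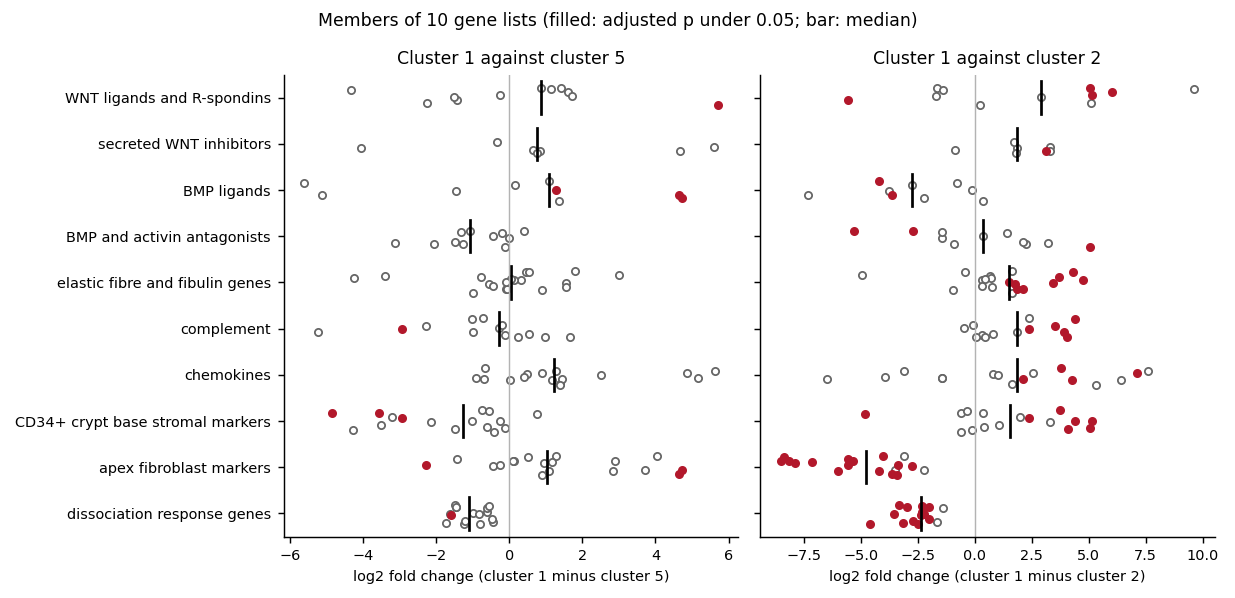
Log2 fold change (x axis) of the members of 10 gene lists (y axis) for cluster 1 minus cluster 5 (left) and cluster 1 minus cluster 2 (right). Each point is a gene, filled where its adjusted p was under 0.05, and the bar is the median of the list. Elastic fibre, complement and crypt base genes lie to the right against cluster 2, apex and dissociation genes lie to the left, and few points are filled against cluster 5.

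Across the 3 lines that held clusters 7, 5, 1 and 2, the position of cluster 1 was read gene by gene without a test. It was the highest of the 4 in every line for 889 genes (4.7% of 18924), 97 of which reached 100 counts in 30% of its cells, and the lowest for 230 (1.22%), with 18 detected. It lay above clusters 7 and 5 and below cluster 2 for 1.43% and the reverse for 1.93%. Among list members the highest group held *Igfbp3*, *Tcf21*, *Col12a1*, *Postn*, *Ltbp1*, *Fbln5*, *Zeb2*, *Nrp1* and *Spon1*. *Ltbp1*, which binds latent TGF-beta, was at 295.2, 365.6 and 328.3, with 247.4 the highest line elsewhere, and *Nrp1*, a neuropilin, at 232.6, 250 and 276.5, with 158.2. The group above clusters 7 and 5 and below cluster 2 held *Bmp5*, *Tnc*, *Nrp2*, *Col18a1*, *Emilin1*, *Id3* and *Dkk3*. *Cd55*, *Col14a1*, *Fbln2*, *Tnxb*, *Lum* and *Mfap5* were in the reverse group, below clusters 7 and 5 and above cluster 2. Clusters 7 and 5 were not ordered against each other. *Col14a1*, a fibril-associated collagen, averaged 1187 and 689 in clusters 7 and 5, 280 ± 35.5 in cluster 1 and 16.8 in cluster 2. *Col6a3*, *Nid1*, *Igfbp6* and *Nbl1* were lowest in cluster 1, together with the dissociation genes *Egr1*, *Dusp1*, *Nr4a1* and *Ier2*.

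Between the reporter lines, cluster 1 cells differed in no gene called by edgeR, with plates as replicates. In 15700 genes the calls were 0 (0%) for each pair of lines, with an unadjusted p under 0.05 in 2.77% of genes for Acta2GFP against PdgfrbGFP, 6.75% for PdgfraGFP against PdgfrbGFP and 5.52% for Acta2GFP against PdgfraGFP. DESeq2 called 0.146%, 2.64% and 1.06% of the genes. A dependence of the difference between clusters 1 and 5 on the line was called by edgeR in 0 of 17412 genes (0%), with 440 at an unadjusted p under 0.05, and by DESeq2 in 8. A count of 0 does not show the lines to be alike. *Acta2* was at 257.9 in Acta2GFP, 84.96 in PdgfraGFP and 164.5 in PdgfrbGFP, and its log2 difference between Acta2GFP and PdgfraGFP was 1.67 (SE 0.79, edgeR adjusted p = 0.883). *Pdgfrb* was at 151.4, 130.8 and 271.4, highest in its own line, and *Pdgfra* at 187.4, 230 and 155.2. *Cspg4* was at 7.15, 34.8 and 22.4.

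Plates of 1 line also differed. The PdgfraGFP plate with 24 cells of cluster 1 had an *Igfbp3* level of 238.9, against 1522 on the plate of the same line with 41 cells and 864 to 1636 on the other plates. Its *Tnc* level was 154.99, against 775 on the plate with 41 cells, and 20.8% of its cells reached a log2(level) of 7 for *Tnc* (7.13 to 42.2%), against 73.2% there (57.1 to 85.8%) and 42.6 to 62.2% on the 6 others with at least 10 cells. *Acta2* was at 16.8 and 124.8 on the pair of plates and *Cd34* at 780 and 388.9. *Bmp5* was at 160 and 178.6 and *Grem1* at 243.1 and 262.1, so these did not separate the plates. Without the plate of 24 cells, 1.15% of genes were higher and 0.0898% lower than in the mean of the others, and of the 56 named differences 48 stayed called. All kept their direction, which the naming rule had required to be the same in every line. The PdgfrbGFP plate with 94 cells had a mean log2(level + 1) of the dissociation genes of 7.69, against 3.07 to 5.07 on the other plates. Without it, the calls were 2.15% and 0.174%. The PdgfrbGFP plates with 19 and 12 cells had the lowest *Tcf21* levels, 220.8 and 326.3, against 593 to 724 on the others.

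**Figure D5:**
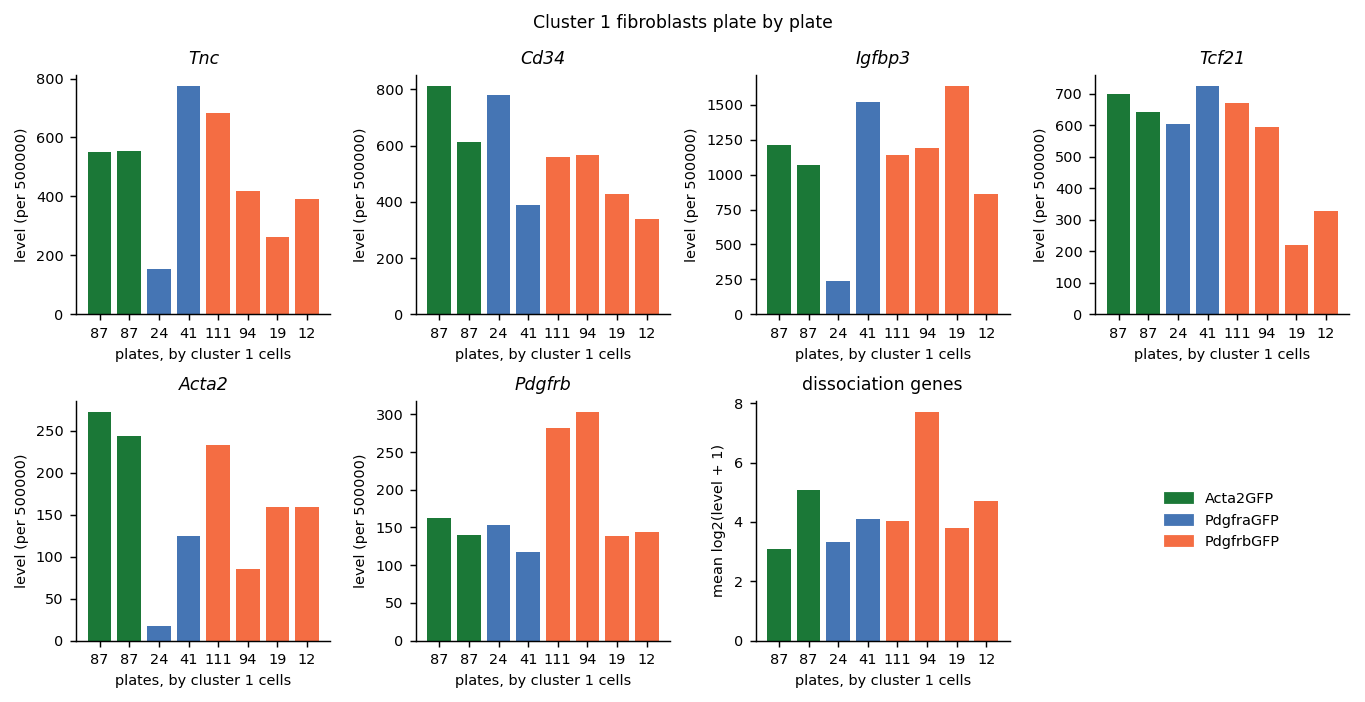
Levels of 6 genes in cluster 1 fibroblasts (y axis, counts per 500000 per cell, bars from 0) and the mean log2(level + 1) of the dissociation genes on each plate with at least 10 cluster 1 cells (x axis, named by that number of cells), coloured by reporter line. The PdgfraGFP plate with 24 cells is lowest in *Tnc*, *Igfbp3* and *Acta2*, and the PdgfrbGFP plate with 94 cells is highest in dissociation genes.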

How the data were processed

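Counts from 1646 single cells of the colon were used, with line, plate and cluster taken from the sample labels. Cluster 1 held 483 cells (174 of Acta2GFP, 236 of PdgfrbGFP, 65 of PdgfraGFP and 8 of Cspg4dsRED) and clusters 2, 5, 6 and 7 held 131, 425, 45 and 223. The authors trimmed reads, aligned them to GRCm38 by TopHat2 and assigned them to genes by featureCounts, then filtered and clustered the cells. The deposited values are raw whole-number counts of 46609 rows. Strand in counting is not given in the sources used here, so overlapping, antisense and near-identical genes are uncertain. The 92 ERCC spike-in rows (1.36% of counts) were left out. Of 46517 genes, 46005 had a symbol in GENCODE vM21 (GRCm38), from which positions were taken (1-based). All cells were kept, and doublets were not called again, as cells in which 10000 or more genes were detected had been dropped by the authors. The highest count of any gene was 5793, on *Col1a1*, and the effect of that ceiling on high levels is not known.

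Counts were summed per cluster and line with at least 10 cells (15 sums), normalized with TMM, filtered with filterByExpr and fitted together over clusters 1, 2, 5, 6 and 7 in edgeR 4.0.16 (R 4.3.3). SEs were obtained from the log2 fold change and the root of its F. Thinning drew 50000 counts per cell and left out 11 cells below that. The scripts were also checked on simulated counts. Alternatives used DESeq2 1.42.0 and limma 3.58.1, no filter, 3 cells per sum, plates as replicates, pooled other clusters, no cluster 6, the line as a block and each line left out. Runs without the PdgfrbGFP plate of 94 cluster 1 cells or the PdgfraGFP plate of 24 were added after seeing the data. Python 3.11.15, numpy 2.4.6, pandas 2.3.3, scipy 1.17.1 and matplotlib 3.10.9 were used.

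The cells, gene lists and tests were chosen with earlier results of these data known. Named genes are the proposed markers, the reporter genes, the 8 genes of each direction (5 in pairwise comparisons) that changed most on the log2 scale among called genes, moved in 1 direction in every line and reaching 100 counts in 30% or more of cells on the higher side, and called list members. The genes ranked by rho with *Tnc*, and genes named for their levels between clusters, were chosen after their values were seen. Sums of the same line deviated together from their cluster means, with r of 0.109 to 0.24 between cluster 1 and clusters 2, 5 and 7 in each line, so the line, which comes from the labels, pairs these sums. With cluster 6, r was 0.0728 and 0.0778. Reads without molecular identifiers are not independent molecules.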

Additional observations from a re-analysis of the deposited data

How the results depend on the processing

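The number of called genes depended on the processing more than directions did, and the cause was not tested. No difference of the genes named for the size of their change turned in sign. Of these 56 differences, 56 stayed called with no filter, with plates as replicates and without the PdgfrbGFP plate of 94 cells, 55 with the line as a block, 51 with limma on cell means and with at least 3 cells per sum, and 48 without the PdgfraGFP plate of 24 cells. With DESeq2, 53 stayed called, and the other 3 (*Pcolce2* against clusters 5 and 7, *Bmp3* against cluster 6) got no adjusted p. Against the mean of the other clusters, 8 of 16 stayed called with pooled counts and 11 without cluster 6. Of 26 levels, all moved by less than the SD over lines when cells were averaged regardless of line, and 24 did so when raw counts were summed. The median log2 fold change of all genes went from 0.15 to −0.01 against the mean of the others with limma, and from 0.05 to −0.01 with DESeq2 against cluster 5. It shifted by −0.16 in the former, and by −0.16 with DESeq2 and −0.25 with limma against cluster 6.

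Called genes are given as percentages of the 18924 genes tested, also where a setting tested another number. Against the mean of the others, higher genes were 0.634% with limma, 2.68% with no filter, 4.41% with plates and 0.217% with pooled counts, and lower genes were 0.777% with DESeq2, 0.618% with plates, 0.27% with pooled counts, 0.285% without cluster 6 and 0.0898% without the plate of 24 cells. Against cluster 5, higher and lower genes were 1.13% and 1.18% with DESeq2, 1.4% and 1.27% with plates and 0.106% and 0.0951% without the plate of 24 cells, with 0.127% higher at 3 cells per sum and 0.259% lower without the plate of 94 cells. Against cluster 7 they were 2.69% and 1.37% with DESeq2, 1.47% and 1.495% with plates and 0.381% and 0.196% without the plate of 24 cells, with 0.756% lower in limma. Against cluster 6 they were 8.05% and 2.38% with DESeq2, 0.793% and 0.993% with limma and 3.58% and 1.36% with plates, with 0.904% higher at 3 cells per sum. Against cluster 2 they were 4.24% and 2.83% with DESeq2 and 3.14% and 2.88% with plates, with 2.49% lower in limma and 0.851% higher without the plate of 24 cells.

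With the line as a replicate block, pairing the sums, higher and lower genes were 1.61% and 0.312% against the mean, 0.28% and 0.211% against cluster 5, 0.904% and 0.555% against cluster 7, 1.84% and 0.724% against cluster 6 and 1.73% and 1.79% against cluster 2. Among list members, markers and genes named by their change, the block ended the calls of *Penk*, *Bmp7*, *C3*, *Hgf* and *Egr1* against cluster 5, of *Wnt2b*, *Fst*, *Sema3c* and *Vegfa* against cluster 2, of *Cxcl16* against cluster 7 and of *Rspo2*, *Cxcl16*, *Osr2* and *Nrp1* against the mean.

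Leaving out 1 line gave 0.0951 to 1.69% higher and 0.0211 to 0.206% lower against the mean, 0.0159 to 0.19% and 0.0159 to 0.153% against cluster 5, 0.0423 to 0.698% and 0.037 to 0.37% against cluster 7, 0.122 to 2.24% and 0.0211 to 0.624% against cluster 6, and 0.106 to 1.64% and 0.148 to 1.47% against cluster 2. The lowest shares came without Acta2GFP. A cluster left with 1 sum was assumed to vary like the others.

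Between lines, DESeq2 called 0.146%, 2.64% and 1.06% of 15700 genes where edgeR called 0, and 8 genes (0.046% of 17412) for the dependence on the line. With no filter edgeR called 5 genes (0.0318%) for Acta2GFP and 11 (0.0701%) for PdgfraGFP against PdgfrbGFP. Leaving out 1 plate gave 0% for Acta2GFP against PdgfrbGFP and 0 to 0.0318% for both other pairs, the calls coming without the PdgfraGFP plate of 41 cells. The share of cluster 1 cells with *Tnc* and *Cd34* was 81.3% with 1 count of each, 43.7% with 10 and 94.4% unthinned. The 2 to 4 sums per cluster limit what could be called.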
